A study of Homo sapiens with 6 samples.

Results

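The genes described here are the metallothioneins MT1E, MT1F, MT1G, MT1M, MT1X and MT2A, their regulator MTF1 and the zinc exporter gene SLC30A1. They were taken by gene symbol, and all 8 were found among the 58735 genes of the deposited expression table. Metallothioneins are small, cysteine-rich proteins that bind zinc, copper and cadmium, and they form the main exchangeable store of zinc in most cells. Their genes carry metal response elements, short promoter sequences bound by MTF1, the zinc-sensing transcription factor. MTF1 also acts on SLC30A1, which encodes the zinc exporter ZnT1 of the plasma membrane. In epidermis, metallothioneins are best known from the basal, dividing keratinocytes and from responses to metals, glucocorticoids and oxidants.

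The RNA was from HaCaT, a human keratinocyte line that is immortalised and so stands in for normal epidermis only in part. Of 6 libraries, 3 came from cells given ultraviolet B (UVB) at 50 mJ, a dose for which the labels state no area, and harvested after 24 h of further culture. The other 3 came from control cells of the same line with no UVB label. The study's title names the question of whether ultraviolet light raises endogenous retrovirus expression and RIG-I signalling, and zinc handling is not mentioned there. Nothing labels the replicate dishes as separate cultures. Every p-value below therefore refers to the scatter of these 6 samples, and that scatter may be technical.

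Levels are given in FPKM, fragments per kilobase of gene, scaled to the reads assigned in each library. The UVB libraries held 72517243 to 88484020 assigned reads, and the control libraries 66272443 to 81303733. All 10 keratinocyte markers examined were detected, with a summed level of 586 to 668 FPKM in UVB libraries and 818 to 1010 FPKM in control libraries. Of these markers, 2 were higher and 5 lower after UVB (limma, adjusted p under 0.05), against 17.0% and 11.0% of all genes tested. Named after their values were seen, KRT5 averaged 122 FPKM after UVB and 287 FPKM in control, and SFN 248 and 354 FPKM. LAMB3, 1 of the 2 that were higher, averaged 163 FPKM after UVB and 122 FPKM in control. Among markers of other skin cell types the summed levels were higher after UVB, and in each list a single gene, named after its values were seen, carried most of the difference. For 6 melanocyte genes the sum was 7.56 to 8.06 FPKM in UVB libraries and 4.40 to 4.79 FPKM in control libraries, mostly from MITF (6.87 FPKM after UVB, 3.64 FPKM in control). For 6 leukocyte genes it was 18.6 to 26.2 FPKM in UVB libraries and 10.7 to 12 FPKM in control libraries. CD68 averaged 18.2 FPKM after UVB and 5.16 FPKM in control, with 85.8% of its exon length overlapping AC016876.2, while CD14 averaged 4.93 FPKM after UVB and 6.36 FPKM in control. For 6 fibroblast genes the sum was 1.79 to 1.97 FPKM in UVB libraries and 0.751 to 1.06 FPKM in control libraries, mostly from COL1A1 (1.75 FPKM after UVB, 0.778 FPKM in control). For 4 endothelial genes it was 5.91 to 8.96 FPKM in UVB libraries and 4.26 to 5.21 FPKM in control libraries, mostly from CDH5 (7.11 FPKM after UVB, 4.78 FPKM in control). TYR, CD3E, CD207 and KDR, which define melanocytes, T cells, Langerhans cells and endothelium, were listed at 0 in every library. MITF, CD68 and COL1A1 were called higher with limma, out of 2 melanocyte, 2 leukocyte and 1 fibroblast genes tested. Among all genes tested 17.0% were called higher. CD14 and CDH5 did not pass (limma adjusted p = 0.0993 and 0.0559). The part of these values in the results below was not tested, and in bulk RNA fewer cells of a type cannot be told apart from less RNA per cell.

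The coding sequences of MT2A, the most abundant metallothionein here and one that fell, and of MT1F, the one that rose, are shown to make plain how alike the measured transcripts are. They come from GENCODE release 29 on GRCh38, without the stop codon, and capitals mark the cysteine codons.
MT2A: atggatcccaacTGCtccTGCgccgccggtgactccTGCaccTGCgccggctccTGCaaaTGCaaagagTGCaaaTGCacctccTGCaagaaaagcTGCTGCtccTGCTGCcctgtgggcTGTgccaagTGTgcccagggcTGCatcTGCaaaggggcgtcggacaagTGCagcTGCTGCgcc
MT1F: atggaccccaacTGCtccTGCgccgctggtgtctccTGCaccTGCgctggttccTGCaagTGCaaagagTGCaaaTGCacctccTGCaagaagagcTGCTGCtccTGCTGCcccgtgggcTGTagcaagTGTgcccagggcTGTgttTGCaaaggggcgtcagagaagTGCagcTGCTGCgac
Both hold 183 bases and 61 codons, of which 20 encode cysteine, and they are 91.3% identical base by base. Among the 6 metallothioneins described here, identity ran from 88.5% for MT1F and MT1X to 95.1% for MT1G and MT2A over 15 pairs. Whole transcripts differ more than the coding parts. Of all stretches of 50 bases in the annotated transcripts, those also found in transcripts of another gene made up 3.02% for MT2A, 1.22% for MT1F, 7.10% for MT1E, 9.87% for MT1M, 16.5% for MT1G and 18.3% for MT1X. At 100 bases none were shared except for 11.3% of MT1X, all with AC026461.1, an overlapping gene listed at 0 in every library. Reads that fall in shared stretches could have been assigned to either copy, so values within the family carry this uncertainty.

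Promoter sequence is shown for MT2A and SLC30A1, the store and the exporter, because metal response elements are the known link between MTF1 and both. The windows are the 250 bases before the RefSeq start on GRCh38.p14, at chr16:56608334-56608583 on the plus strand for MT2A and chr1:211579162-211579411 on the minus strand for SLC30A1. Capitals mark the core of the metal response element, searched as TGCACNC or TGCGCNC on both strands.
MT2A promoter: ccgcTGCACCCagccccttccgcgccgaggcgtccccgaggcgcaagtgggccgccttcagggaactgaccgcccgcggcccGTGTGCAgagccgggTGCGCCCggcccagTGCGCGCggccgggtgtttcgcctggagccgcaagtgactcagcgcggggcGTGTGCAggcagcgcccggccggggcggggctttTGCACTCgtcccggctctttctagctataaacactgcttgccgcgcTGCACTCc
SLC30A1 promoter: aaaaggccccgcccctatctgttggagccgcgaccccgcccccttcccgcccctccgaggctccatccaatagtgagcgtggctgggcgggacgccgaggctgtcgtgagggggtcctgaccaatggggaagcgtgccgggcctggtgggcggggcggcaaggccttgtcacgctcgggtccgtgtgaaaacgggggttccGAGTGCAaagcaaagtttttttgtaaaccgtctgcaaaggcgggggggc
The MT2A window held 7 matches, 5 of them on the strand of the gene. At least 7 matches occurred in 0.0313% of the 35116 promoter windows of the same length. The MT1X window held 4 matches, and at least 4 occurred in 0.37% of windows. The SLC30A1 window held 1 match, on the opposite strand, and 24.8% of all windows held at least 1. The MTF1 window held none of these letters. RefSeq promoter entries were used for these 4 of the 8 genes. The MT2A window lies inside the span that GENCODE gives the gene, which begins 385 bases before the RefSeq start. For SLC30A1 the GENCODE start lies 419 bases after the RefSeq start, so the bases between were not searched and the windows of MT2A and SLC30A1 are not placed alike. These matches describe letters and say nothing of binding in these cells.

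After UVB the zinc sensor rose slightly, the most abundant metallothionein fell slightly, and one scarce metallothionein rose. Of the 8 genes, 6 reached the mean of 0.5 FPKM needed for testing. MTF1 and MT1F were higher and MT2A was lower after UVB, with a Benjamini-Hochberg adjusted p under 0.05 over all genes tested (limma on log2(FPKM + 1)). Thus 2 of 6 were higher, against 17.0% of the 14921 genes tested, and 1 of 6 was lower, against 11.0%. The other 3 did not pass. A count test on reads recovered from the FPKM values (edgeR) also called 2 of the 6 higher and 1 lower, where it called 10.7% of 19685 genes higher and 10.4% lower. The split over all genes was 2530 higher and 1637 lower with limma, against 2100 higher and 2050 lower with edgeR. With so few members these shares do not set the group apart from genes in general.

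MTF1 (ENSG00000188786) lies on chromosome 1 at 37809567 to 37859620, minus strand. It was at 3.89, 3.97 and 3.99 FPKM in UVB libraries, against 3.01, 3.33 and 3.25 FPKM in control libraries. Every UVB library was above every control library, and the UVB libraries hardly differed among themselves. The means were 3.95 ± 0.0538 FPKM after UVB and 3.2 ± 0.168 FPKM in control (SD, n = 3 each). On the log2(FPKM + 1) scale the increase was 0.24 (SE 0.0589, limma adjusted p = 0.0274), and edgeR gave 0.27 (adjusted p = 0.0411). The limma call was lost when UVB 1, UVB 2, UVB 3, control 1 or control 3 was left out, with adjusted p values of 0.0686, 0.0773, 0.0856, 0.0776 and 0.0585 in that order, at log2 fold changes of 0.21 to 0.25. Over all alternatives the adjusted p ran from 0.018 to 0.0856.

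MT2A (ENSG00000125148), on chromosome 16 at 56608199 to 56609497, plus strand, encodes the widely expressed metallothionein 2. It stood at 286.5, 255.2 and 256.8 FPKM in UVB libraries, against 318.3, 304.5 and 323.5 FPKM in control libraries. The groups did not overlap, and UVB 1 was the UVB library nearest to the controls. MT2A averaged 266 ± 17.6 FPKM after UVB and 315 ± 9.83 FPKM in control (SD, n = 3 each), and its mean over the 6 libraries ranked 92 among the genes tested. It fell by 0.25 on the log2 scale (SE 0.0565, limma adjusted p = 0.0214), a fitted UVB to control ratio of 0.843. The edgeR estimate was −0.28 (adjusted p = 0.019). Leaving out UVB 2, UVB 3, control 1 or control 3 ended the limma call, with adjusted p values of 0.068, 0.0751, 0.063 and 0.0624, while the log2 fold change stayed between −0.30 and −0.22. Over all alternatives the adjusted p ran from 0.00612 to 0.0751.

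MT1E (ENSG00000169715), at 56625475 to 56627112 on the plus strand of chromosome 16, was the next most abundant. It had 151.7, 146.2 and 130.8 FPKM in UVB libraries, against 156.8, 166.0 and 159.9 FPKM in control libraries. All UVB values were below all control values, but the gap between UVB 1 and control 1 was smaller than the range within either group. The log2 fold change was −0.17 (95% interval −0.32 to −0.02), and it did not pass (limma adjusted p = 0.0873, 0.0595 to 0.427 over the alternatives). MT1E averaged 143 ± 10.8 FPKM after UVB and 161 ± 4.68 FPKM in control (SD, n = 3 each).

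MT1X (ENSG00000187193), at 56682424 to 56684196 on the plus strand of chromosome 16, had 35.1, 34.1 and 30.1 FPKM in UVB libraries, against 31.2, 37.5 and 35.9 FPKM in control libraries. The groups overlapped, with control 1 below 2 of the UVB libraries. MT1X averaged 33.1 ± 2.60 FPKM after UVB and 34.9 ± 3.26 FPKM in control (SD, n = 3 each), and its log2 fold change was −0.07 (95% interval −0.28 to 0.14, limma adjusted p = 0.583). Its exons overlap those of AC026461.1 over 18.1% of their length.

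MT1F (ENSG00000198417), at 56657694 to 56660698 on the plus strand of chromosome 16, was the only metallothionein of the 4 tested that rose. It was at 6.24, 5.33 and 6.33 FPKM in UVB libraries, against 4.32, 4.29 and 4.66 FPKM in control libraries. All UVB libraries were above all control libraries, and UVB 2 was the lowest of the UVB group. The means were 5.96 ± 0.555 FPKM after UVB and 4.42 ± 0.203 FPKM in control (SD, n = 3 each). On the log2 scale it rose by 0.36 (SE 0.0763, limma adjusted p = 0.0165), a fitted ratio of 1.28, and edgeR gave 0.39 (adjusted p = 0.0449). These values rest on 537 to 948 recovered reads per library, for which counting error alone is 3.25% to 4.32%. The call was lost without UVB 1, UVB 3 or control 1, with adjusted p values of 0.0575, 0.0581 and 0.0523, and the range over all alternatives was 0.013 to 0.0768.

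MT1G (ENSG00000125144, chromosome 16, 56666731 to 56668065, minus strand) and MT1M (ENSG00000205364, chromosome 16, 56632233 to 56633986, plus strand) were listed at 0 in all 6 libraries. A count of 0 allows up to 3 reads per library, which is 0.0452 to 0.0604 FPKM for MT1G and 0.0360 to 0.0481 FPKM for MT1M, for counting error only. No fold change can be given for either.

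SLC30A1 (ENSG00000170385), on chromosome 1 at 211571568 to 211578742, minus strand, was at 8.78, 9.84 and 9.45 FPKM in UVB libraries, against 7.70, 8.0 and 8.89 FPKM in control libraries. Control 3 was above UVB 1, so the groups overlapped. The exporter averaged 9.36 ± 0.537 FPKM after UVB and 8.20 ± 0.618 FPKM in control (SD, n = 3 each). Its log2 fold change of 0.17 had a 95% interval of 0.00 to 0.34 and did not pass (limma adjusted p = 0.12, 0.0679 to 0.381 over the alternatives).

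**Figure D1:**
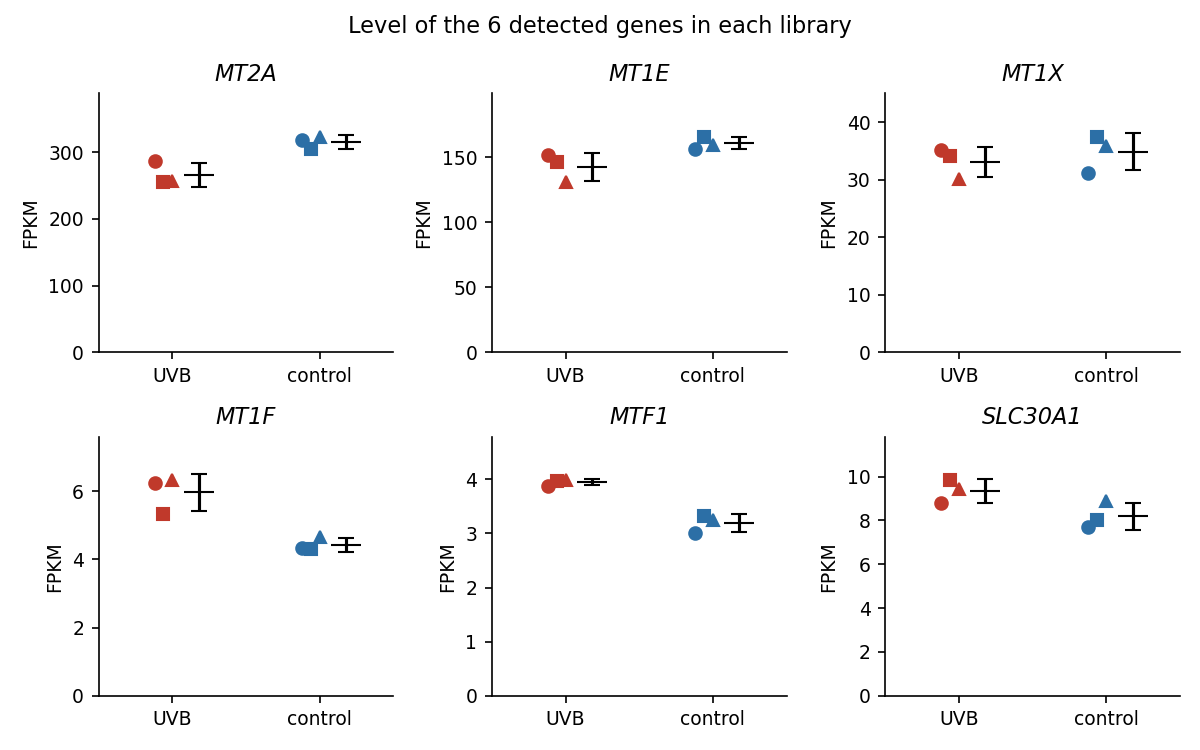
Level in FPKM (vertical axes, each from 0) of MT2A, MT1E, MT1X, MT1F, MTF1 and SLC30A1 in the UVB libraries (red, left) and the control libraries (blue, right), with circles, squares and triangles for replicates 1, 2 and 3 and black bars for mean ± SD (n = 3). MT2A and MT1E lie lower in every UVB library than in any control library, MT1F and MTF1 lie higher, and MT1X and SLC30A1 overlap.

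In all, 2 of the 6 tested genes had every UVB library above every control library, and 2 had every one below. Over all genes tested these patterns held for 27.6% and 18.2%. The changes were of ordinary size for these libraries, in which the median log2 fold change was 0.04, the quartiles were −0.14 and 0.21 and the median absolute change was 0.18. Larger absolute changes than that of MT1F were seen in 21.4% of genes tested, and larger ones than those of MT2A and MTF1 in 36.6% and 38%. MT1E and SLC30A1 each stood below 52.0% of genes, and MT1X below 78.1%.

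**Figure D2:**
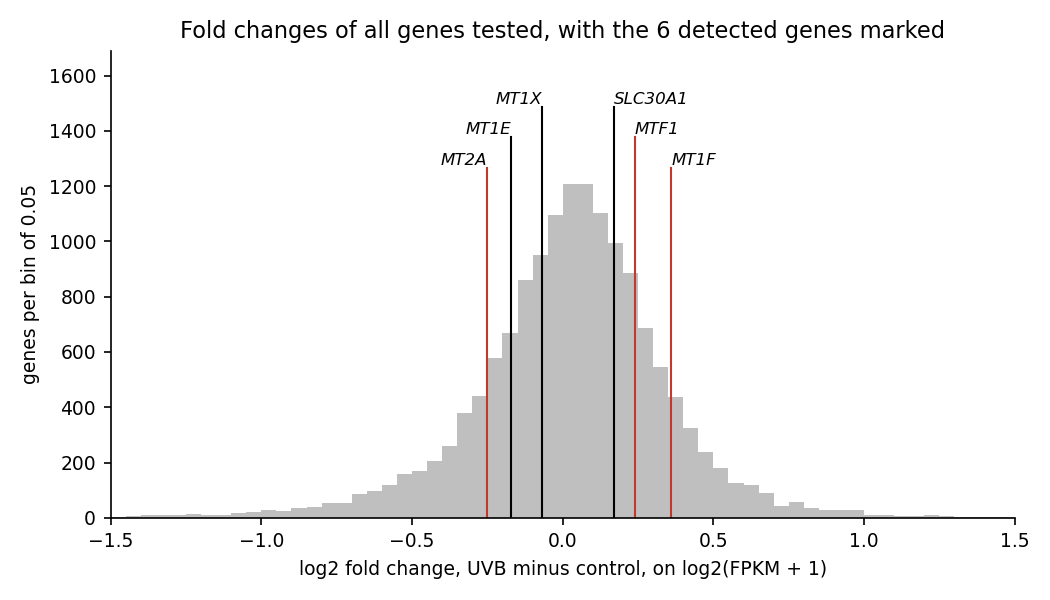
Number of genes (vertical axis) by log2 fold change of UVB over control on log2(FPKM + 1) (horizontal axis, bins of 0.05) for the 14921 genes tested, of which 65 lie outside the axis. Vertical lines mark the 6 detected genes, in red where they passed the test, and all lie between −0.25 and 0.36.

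Most metallothionein RNA came from MT2A and MT1E. The metallothionein genes together took 0.0566% ± 0.00356 of assigned reads after UVB and 0.0649% ± 0.00102 in control (SD, n = 3 each). Their summed level was 424 to 480 FPKM in UVB libraries, below the 511 to 524 FPKM of control libraries. MT2A supplied 59.4% ± 1.37 of the summed FPKM after UVB and 61.1% ± 1.53 in control. MT1E supplied 31.9% ± 1.22 after UVB and 31.2% ± 1.04 in control. MT1F supplied 1.33% ± 0.143 after UVB and 0.857% ± 0.0278 in control. The order from MT2A through MT1E and MT1X to MT1F was the same in each library, with no overlap of neighbours.

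The order does not depend on the gene length used, though the spacing does. The FPKM were scaled by merged exon lengths, which for MT1X is 1773 bases and 3.94 times its main transcript of 450 bases. On the length of the main transcript MT1X was at 130 FPKM after UVB and 137 FPKM in control, MT1F at 16.3 FPKM after UVB and 12.1 FPKM in control, and MT2A at 440 FPKM after UVB and 521 FPKM in control. These lengths are the same in both groups and leave fold changes as they are.

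Set against MT2A in the same library, MT1F was the only one of 3 metallothioneins whose relative level separated the groups, in a design that cannot reach a p under 0.05. Its log2(FPKM + 1) minus that of MT2A was −5.31, −5.34 and −5.14 in UVB libraries, against −5.91, −5.85 and −5.84 in control libraries. The groups were separate by more than their spread, with a difference of 0.60 (2-sided exact permutation p = 0.1, the smallest that 3 against 3 allow, and 0.3 after adjustment over 3 ratios). This separation had to follow from the single-gene values. Every UVB library was above every control library for MT1F and below every one for MT2A. The ratio of MT1F to MT2A is therefore no further evidence of a change. MT1E relative to MT2A was −0.91, −0.80 and −0.97 in UVB libraries, against −1.02, −0.87 and −1.01 in control libraries, and these overlapped (difference 0.07, exact permutation p = 0.3, adjusted 0.3). For MT1X the values were −2.99, −2.87 and −3.05 in UVB libraries, against −3.31, −2.99 and −3.14 in control libraries, again with overlap (difference 0.17, exact permutation p = 0.3, adjusted 0.3). A ratio of this kind shows unequal change of a pair of genes and not which of them moved.

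**Figure D3:**
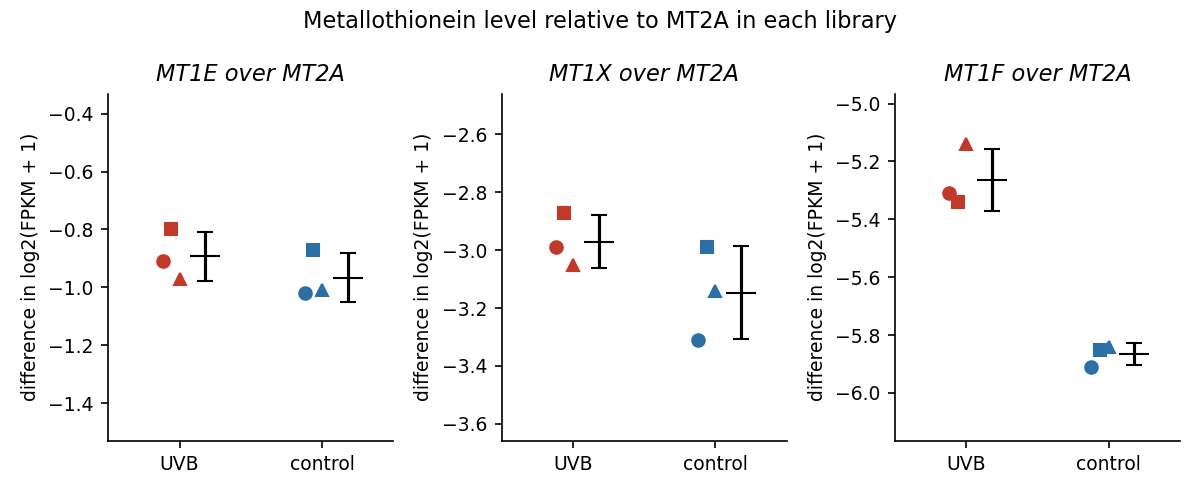
Difference in log2(FPKM + 1) from MT2A (vertical axes, each spanning the same range of log2 units) for MT1E, MT1X and MT1F in UVB libraries (red, left) and control libraries (blue, right), with circles, squares and triangles for replicates 1, 2 and 3 and black bars for mean ± SD (n = 3). Only for MT1F, among these 3, do all UVB libraries (−5.34 to −5.14) lie above all control libraries (−5.91 to −5.84).

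In the authors' deposited table the log2 fold changes had the same signs, with larger standard errors. The authors' deposited table gives −0.25 (SE 0.0978, adjusted p 0.306) for MT2A, 0.43 (SE 0.155, adjusted p 0.199) for MT1F and 0.30 (SE 0.111, adjusted p 0.21) for MTF1. For MT1E, MT1X and SLC30A1 the authors' deposited table gives −0.17, −0.08 and 0.19, each with an adjusted p of 0.975. None of the 6 passes at 0.05 in the authors' deposited table. That table holds 830418 features, genes and repeats together, against the 14921 genes tested here. The set over which its p-values were adjusted is not known here. Its standard errors may be on another scale than log2(FPKM + 1). The standard errors and adjusted p-values of the 2 sources are therefore not like for like.

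All of the coding metallothionein genes of the chromosome 16 cluster, 11 in 119 kb, stand on the plus strand except MT1G. Of the 11, 7 were listed at 0 in every library, among them MT3, known from brain, and MT4, known from stratified epithelia. MT1A, MT1B and MT1H were the others beside MT1G and MT1M. The genes at either side, picked after their values were seen, did not pass. BBS2, a gene of the primary cilium, was at 5.27 ± 0.359 FPKM after UVB and 4.73 ± 0.829 FPKM in control (limma adjusted p = 0.422). NUP93, a nuclear pore gene, was at 14.2 ± 0.326 FPKM after UVB and 12.9 ± 0.679 FPKM in control (SD, n = 3 each, limma adjusted p = 0.118). Of the 15 other metallothionein genes and pseudogenes listed, 14 were found, 8 were at 0 throughout, 2 could be tested and 0 were called by limma or by edgeR, with 0 at an unadjusted limma p under 0.05. The pseudogene MT2P1 was at 4.14, 3.77 and 1.93 FPKM in UVB libraries, against 4.81, 3.71 and 2.76 FPKM in control libraries, with overlap. MT1P3 was at 0.779, 1.15 and 0.926 FPKM in UVB libraries, against 0.407, 1.02 and 1.53 FPKM in control libraries, also with overlap. MT1DP had at most 0.33 FPKM and MT1P1 at most 0.551 FPKM in any library, both under the filter.

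**Figure D4:**
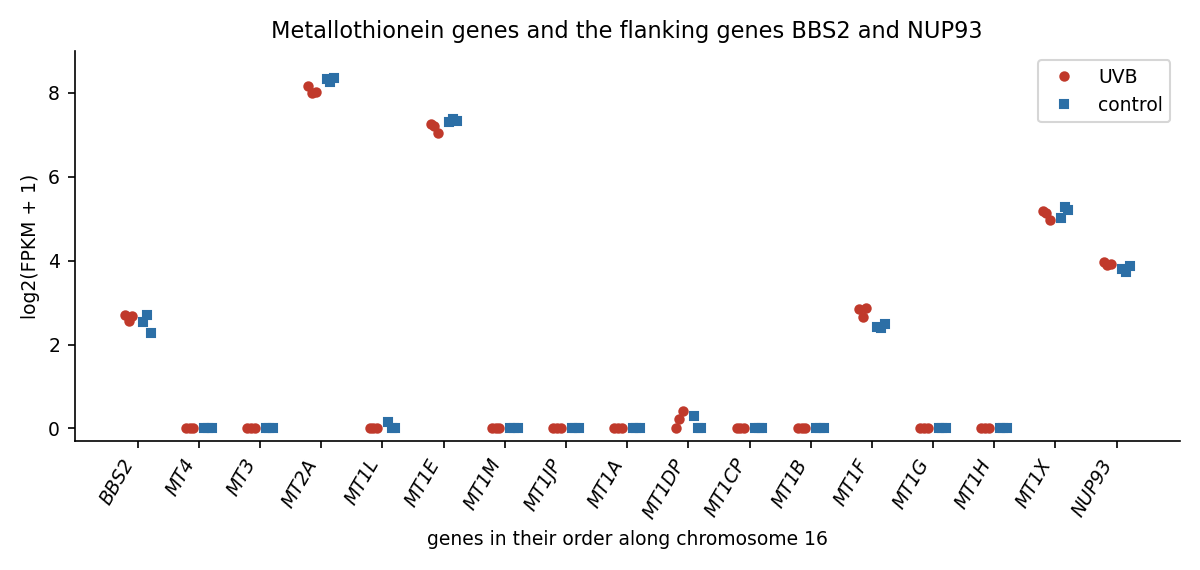
Level as log2(FPKM + 1) (vertical axis) of metallothionein genes and pseudogenes and of the flanking genes BBS2 and NUP93, in their order along chromosome 16 (horizontal axis, not to scale), with 1 point for each UVB library (red circles, left) and control library (blue squares, right). MT2A, MT1E, MT1X and MT1F stand above genes at or near 0.

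Zinc transporters divide into exporters of the SLC30 family, most of which move zinc out of the cytosol, and importers of the SLC39 family, most of which move it in. Of 7 exporters tested, SLC30A1 included, 0 were called by limma or edgeR in either direction, 1 (SLC30A1) had an unadjusted limma p under 0.05, and their median log2 fold change was 0.08. SLC30A9, a mitochondrial zinc exporter, was at 7.92 ± 0.489 FPKM after UVB and 8.92 ± 0.571 FPKM in control (log2 fold change −0.15, limma adjusted p = 0.146). Of 12 importers tested, 4 were higher and 2 lower, against 17.0% and 11.0% of all genes tested, with a median of 0.06 beside 0.04 over all genes. With edgeR 13 could be tested, of which 4 were higher and 2 lower, against 10.7% and 10.4% of all genes.

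SLC39A11, on chromosome 17 at 72645949 to 73092712, fell furthest and has the longest span of the SLC39 genes listed. Whether gene span had a part in the fall was not tested. SLC39A11 was at 0.531, 0.765 and 0.707 FPKM in UVB libraries, against 4.30, 4.39 and 3.96 FPKM in control libraries. Every UVB value was far under the lowest control value (log2 fold change −1.65, SE 0.0822, limma adjusted p = 0.000127). For a gene this low the pseudocount shrinks the fold, and the log2 fold change was −2.69 with edgeR and −2.50 with a pseudocount of 0.1 FPKM. SLC39A2 also fell, to 3.07 ± 0.414 FPKM after UVB, against 5.39 ± 0.755 FPKM in control (−0.65, limma adjusted p = 0.00948). SLC39A3, an importer of the plasma membrane, rose to 13.3 ± 1.93 FPKM after UVB, against 8.64 ± 0.319 FPKM in control (0.56, limma adjusted p = 0.00831). SLC39A6 and SLC39A14, named after their values were seen, rose by 0.31 and 0.41 (limma adjusted p = 0.00405 and 0.00221). SLC39A1 was at 81.9, 77.2 and 40.5 FPKM in UVB libraries, against 35.3, 29.6 and 32.7 FPKM in control libraries. UVB 3 lay near the controls and the other UVB libraries well above them (0.95, limma adjusted p = 0.0396). That call was lost without UVB 1, UVB 2, control 1, control 2 or control 3, with adjusted p values of 0.106, 0.11, 0.0786, 0.105 and 0.0945, and over all alternatives the adjusted p ran from 2.24e-05 to 0.11. In addition, 69.1% of its exon length overlaps AL358472.7, whose reads cannot be told apart without a stated strand setting.

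**Figure D5:**
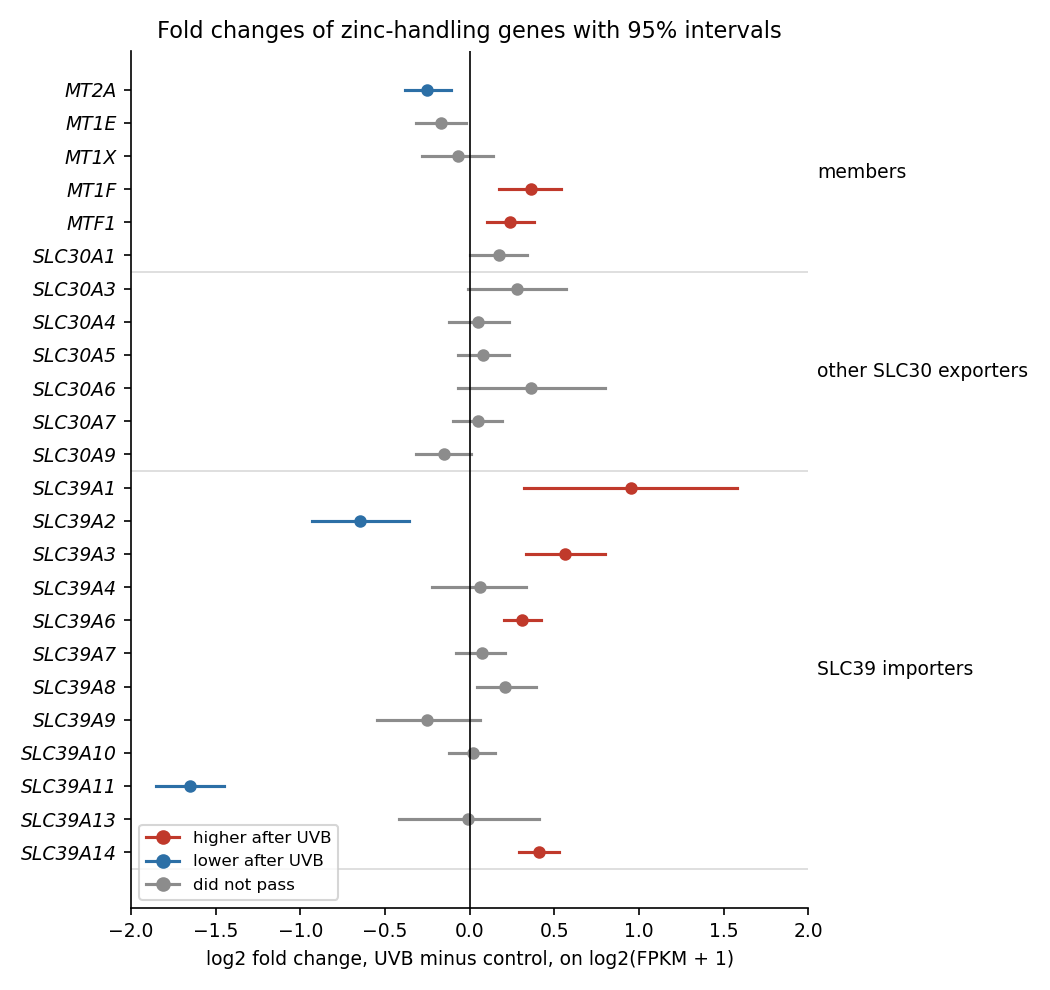
Log2 fold change of UVB over control on log2(FPKM + 1) (horizontal axis) with its 95% interval (bars, limma) for the 6 tested genes described here, the other SLC30 exporters and the SLC39 importers, in red where higher, blue where lower and grey where the test was not passed. The intervals of MT2A, MT1F and MTF1 lie closer to 0 than that of SLC39A11 at −1.65.

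Copper and iron genes were included because metallothioneins also bind copper. Of 15 tested, 5 were higher and 5 lower with limma, where 17.0% and 11.0% of all genes were. With edgeR 2 were higher and 5 lower, where 10.7% and 10.4% of all genes were. The median log2 fold change was −0.05. The copper chaperones ATOX1, which feeds the copper pumps, and CCS, which loads SOD1, rose. ATOX1 was at 7.04 ± 0.413 FPKM after UVB and 5.08 ± 0.446 FPKM in control (limma adjusted p = 0.0106). CCS was at 11.0 ± 0.697 FPKM after UVB and 7.74 ± 0.842 FPKM in control (limma adjusted p = 0.0116). The copper pump ATP7A fell to 1.5 ± 0.0801 FPKM after UVB, against 2.29 ± 0.0520 FPKM in control (−0.40, limma adjusted p = 0.00644), with −0.65 by edgeR. COMMD1, a regulator of copper transport, had 0.525, 0.402 and 0.295 FPKM in UVB libraries, against 2.60, 2.43 and 2.64 FPKM in control libraries (−1.34, limma adjusted p = 0.000259). Its log2 fold change was −2.69 with edgeR and −2.41 with a pseudocount of 0.1 FPKM, and 38.5% of its exon length overlaps RPSAP26. COMMD1 (chromosome 2, 61888724 to 62147247) and ATP7A (chromosome X, 77910656 to 78050395) have the longest spans of the copper and iron genes listed. Whether gene span had a part in their falls was not tested.

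Genes that respond to metals, heat or thiol loss moved in both directions. Of 13 tested, 2 were higher and 4 lower with limma, the share higher being near the 17.0% of all genes, where 11.0% were lower. With edgeR, 1 of 14 was higher and 4 were lower, where 10.7% and 10.4% of all genes were. The median log2 fold change was −0.13. BAG3, a co-chaperone, fell to 42.0 ± 0.940 FPKM after UVB, against 60.4 ± 2.08 FPKM in control (−0.51, limma adjusted p = 0.000605). GCLC, of glutathione synthesis, fell to 7.18 ± 0.152 FPKM after UVB, against 9.82 ± 0.351 FPKM in control (−0.40, limma adjusted p = 0.00237). The cystine transporter SLC7A11 rose by 0.24 (limma adjusted p = 0.0265, 0.0221 to 0.0876 over the alternatives). Its call was lost without UVB 2, UVB 3, control 1, control 2 or control 3 (0.0819, 0.0876, 0.056, 0.073 and 0.0601). SQSTM1, an autophagy receptor, rose by 0.24 (limma adjusted p = 0.0391, 0.0244 to 0.132 over the alternatives). Its call was lost with edgeR (0.0781) and without UVB 1, UVB 2, UVB 3, control 1 or control 2 (0.0563, 0.0944, 0.0805, 0.101 and 0.1). HMOX1, a gene induced by heavy metals, stayed under the filter. HSPA1A, singled out after its values were seen, was at 252, 0.232 and 0.330 FPKM in UVB libraries, against 0.238, 279 and 0.902 FPKM in control libraries. Its near-identical copy HSPA1B shares 72.7% of its 100-base stretches with other genes and stood at 226 to 241 FPKM in UVB libraries and 259 to 281 FPKM in control libraries, so neither value can be read alone.

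Glucocorticoids are the other classical inducers of metallothioneins, MT2A above all. The 11 genes tested from the glucocorticoid list were not all response genes. Among them were NR3C1, the receptor gene, and HSD11B2, whose enzyme inactivates cortisol, both named after their values were seen. Of the 11, 6 were higher, HSD11B2 among them, and 0 lower. These counts held with both limma and edgeR and also at an unadjusted limma p under 0.05. The median log2 fold change was 0.28. Over all genes 17.0% were higher and 11.0% lower with limma, and 10.7% and 10.4% with edgeR, and the median was 0.04. DUSP1, a MAP kinase phosphatase, rose to 5.82 ± 0.479 FPKM after UVB, against 3.26 ± 0.422 FPKM in control (0.68, limma adjusted p = 0.00344). ERRFI1, an inhibitor of EGF receptor signalling, rose to 8.61 ± 1.52 FPKM after UVB, against 5.30 ± 0.205 FPKM in control (0.60, limma adjusted p = 0.0116). PER1, a clock gene, rose by 0.41 (limma adjusted p = 0.015, 0.0519 without UVB 1 and 0.0542 without UVB 3, 0.000369 to 0.0542 over the alternatives). TSC22D3, also known as GILZ, rose by 0.36 (limma adjusted p = 0.0168, 0.0514 without UVB 2, 0.00482 to 0.0514 over the alternatives). Several of these genes also respond to other signals. The log2 fold change of MT2A was −0.25, and whether glucocorticoid signalling had a part in any of these values was not tested.

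The protein-coding genes whose profiles over the 6 libraries came closest to the mean metallothionein profile were UQCRQ, MPC1, STMP1, WNT7A and H2AFJ. Their root mean square differences were 0.0163 to 0.0231 log2 units among 10851 genes searched. That mean joins MT1F, which rose, with MT2A, which fell. The 5 matches had log2 fold changes of −0.06 to −0.04 (limma adjusted p = 0.521 to 0.689), against −0.25 for MT2A and 0.36 for MT1F. They therefore do not follow either gene. The genes closest to SLC30A1 were ORC5, C1GALT1, IDE, INO80C and DDX21, at 0.0153 to 0.0261 log2 units. With 6 libraries and small changes, likeness of this kind is a description of the libraries.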

How the data were processed

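Sample titles gave the 2 groups. Per the submitters' processing notes, HISAT2 2.0.5, StringTie, DESeq and build hg38 (GRCh38) were used. How reads were counted, and with which strand setting, is not given in the sources used here. The authors deposited FPKM values, scaled by merged exon length and by all reads assigned to genes and repeats. They also deposited read counts of 74 repeat copies, from which the reads assigned per library were derived. With these, 100% of non-zero FPKM gave whole reads within 0.01, though each unit may not be 1 read. Log2 fold changes with standard errors and p-values of the authors' own comparison were deposited too.

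limma 3.58.1 in R 4.3.3 (eBayes, mean trend) was fitted to log2(FPKM + 1) of all genes averaging 0.5 FPKM or more, and p-values were adjusted by Benjamini-Hochberg over all genes tested and called under 0.05. Fold changes on this scale understate those of low genes. Recovered reads were tested with edgeR 4.0.16 (quasi-likelihood, TMM) and DESeq2 1.42.0 as alternatives, besides changes of pseudocount, filter and scaling, a block for replicate number, and fits without 1 library. Ratios were tested by exact permutation in scipy 1.17.1. Scripts were tested on simulated data. The members and gene lists were chosen with earlier results of these data known. Named genes are all members, other metallothionein genes averaging 0.1 FPKM or more, up to 4 called genes per list by size of change (or up to 2 by level), and the 5 genes closest in profile. GENCODE release 29 gave coordinates.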

Additional observations from a re-analysis of the deposited data

How the results depend on the processing

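No gene named as called, cell type markers and HSD11B2 aside, changed direction under the alternatives run, but several calls did not hold. The cell type markers and HSD11B2 were not followed one by one. Of the 8 genes described, the 2 higher became 1 without a filter, 0 with edgeR without a filter, and 0 to 2 when 1 library was left out. The 1 lower became 0 without a filter and 0 to 1 when 1 library was left out. The 5 lists of SLC30, SLC39, copper and iron, metal and heat stress, and glucocorticoid genes held 58 tested genes, 17 higher and 11 lower. Of these the glucocorticoid list gave 11 tested genes, 6 higher and 0 lower. Among all genes tested with limma 17.0% were higher and 11.0% lower. The 17 higher became 11 without a filter, 11 with edgeR without a filter and 8 to 13 without 1 library. The 11 lower became 7 without a filter and 7 to 9 without 1 library. Over all genes, leaving out 1 library gave 1639 to 2074 higher and 1178 to 1332 lower. The scalings moved the median log2 fold change of all genes by less than 0.1. The labels state no pairing by replicate number. Deviations of same-numbered libraries from their group means correlated at 0.0481, 0.0221 and 0.0298. Pairs with different numbers gave −0.0326 to 0.00394. Every library thus correlated best with its own number, though weakly. Deviations within a group sum to 0, so values for same-numbered and different-numbered pairs are not independent. How often chance alone would give such a pattern was not tested. It is at most a weak hint of pairing, from the data and not the design. The fit with a replicate block therefore belongs beside the main one. With a replicate block 1 of the genes described was higher and 1 lower, the lists had 10 higher and 8 lower, and all genes 1789 higher and 1240 lower. Under the block the adjusted p was 0.0708 for MTF1, 0.0527 for SLC39A1, 0.077 for SLC7A11 and 0.0917 for SQSTM1. Beyond fewer libraries, or more genes tested where no filter was used, the cause was not tested. The ratio of MT1F to MT2A differed by 0.54 to 0.64 without 1 library and by 0.67 with a pseudocount of 0.1 FPKM. Among the 6 tested genes described, MT1F had the fewest reads, 537 to 948 per library.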
